A study of Mus musculus with 12 samples.

Results

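CpG islands are stretches of DNA that keep a high density of CG dinucleotides, and most of them sit at gene promoters. The regions described here are the exception. They are 500 bp regions that the authors' region table annotates as CpG island although the nearest transcription start site (TSS) in that table lies more than 3000 bp away, on chromosomes 1 to 19 of mm10. The rule selected 900 of 104981 regions by annotation and distance alone, and no signal value was used. Another 70559 regions on the same chromosomes lie as far from a TSS without that annotation and are called other distal regions below.

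The signal is acetylation of histone H3 at lysine 27 (H3K27ac), measured by chromatin immunoprecipitation and sequencing in microglia (the macrophages that live in the brain) sorted from mouse cortex at postnatal day 30. All mice had been injected into a cerebral ventricle on 1 side, with interleukin-33 (IL-33), a cytokine of the IL-1 family released by damaged or stressed cells, or with vehicle, and were killed 4 h later. Each of 4 male mice (numbered 1, 2, 5 and 6) and 4 female mice (3, 4, 7 and 8) gave 1 H3K27ac library, and values by mouse follow that order throughout. There were also input libraries of the 4 male mice that were not analysed here. Strain and genotype are not stated in the labels, nor which mouse received IL-33, so the effect of IL-33 is taken from the authors' deposited table alone and no mouse is assigned to a treatment. Sex is given for every mouse, but the table's header text also gives 1 date and single index reads for the male libraries against another date and dual index reads for the female libraries, so sex and this difference cannot be told apart, and no within-batch value exists because each batch holds 1 sex.

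Acetylation of H3K27 is written by the acetyltransferases p300 and CBP and marks promoters and enhancers in use. Unmethylated CpG islands are bound by CXXC-domain proteins and are generally open and poor in nucleosomes. At genes that a cell does not use they are often held by Polycomb complexes, which place methylation on the same lysine and so oppose acetylation. Islands away from annotated starts include unannotated or alternative promoters and enhancers.

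Library totals were 5160915 to 10019606 tags in males and 2155209 to 4133042 in females. The median of the set was 9, 7, 8 and 5 reads per region in the 4 males, and 2, 3, 2 and 1 in the 4 females. Between 15.3 and 19.2% of the 900 regions had no read in a given male library and between 37.7 and 42.1% had none in a given female library. The labelled cell type was checked at gene starts, where 10 of 10 microglial markers reached 10 tags (tags per 10000000, mean of 8 libraries, 49.2 to 444), with summed levels of 3060 to 3826 in male and 3612 to 5115 in female libraries. A region at the gene start existed for 2 of 6 neuronal, 1 of 4 astrocytic, 1 of 4 peripheral myeloid and 1 of 2 lymphocyte markers. None of these exceeded 1.15 tags, and the other markers of these types have no value. The oligodendrocyte genes Mog (37.9) and Mbp (16.0) and the endothelial gene Pecam1 (64.0) did reach 10 tags, while Flt1 was at 1.22. Summed over each list, oligodendrocyte markers held 28.9 to 72.2 tags in male and 26.6 to 111 in female libraries, and endothelial markers 51.5 to 69.2 and 44.0 to 97.5, so the sexes overlapped. Mag and Cldn5 likewise had no region at their start. In such sorted bulk samples fewer cells of a type and less signal per cell cannot be told apart.

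Although chosen for distance from a start in the table, part of the set coincides with starts in the RefSeq annotation of GRCm38.p6, which has the coordinates of mm10. Of 871 regions on chromosomes covered by the RefSeq promoter table, 121 (13.9%) overlapped the window from 250 bases before to 50 bases after a RefSeq gene start. Among other distal regions 758 of 68147 (1.11%) did. A further 670 regions lay more than 3000 bp from every RefSeq start. The 116 different windows at these regions had a median GC content of 64.8%, 23 CG dinucleotides per 300 bases and an observed-to-expected CpG ratio of 0.77. The corresponding medians were 52.7%, 7 and 0.38 over all 32851 windows, and 50.5%, 5 and 0.29 over the 708 windows at other distal regions. The hexamer GGGCGG (either strand), the core of the GC box bound by Sp1-type factors, stood in 73.3% of the windows at CpG-island regions and in 35.7% of all windows. The hexamer TATAAA (either strand), a TATA box core, stood in 6.03% of the former and 13.6% of the latter. These matches describe letters in the windows and are not binding sites.

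Some of these 300-base windows are printed from RefSeq (GRCm38.p6), 5′ to 3′ on the strand of the RefSeq gene, with every CG dinucleotide in capitals. They overlap regions of the set, in part by a few bases only, and are not the regions' own bases. The values of these regions are described further on, except for the region nearest to Ccr1. The windows at Pcgf5 (chr19:36409498-36409797, plus strand), Rapgef5 (chr12:117533678-117533977, plus strand) and Arhgap32 (chr9:32032053-32032352, plus strand) overlie 3 of the regions with the lowest signal in female relative to male libraries. The window of Gm2885 (chr17:6827967-6828266, minus strand) overlies 2 regions nearest to Ezr in the authors' annotation that were higher with IL-33. The window of Gm33582 (chr14:60176701-60177000, plus strand) overlies a region nearest to Mir719 that was lower with IL-33. The window of Gm51701 (chr9:123924898-123925197, plus strand) overlies a region nearest to Ccr1 with the highest signal among those at a RefSeq start.
Pcgf5: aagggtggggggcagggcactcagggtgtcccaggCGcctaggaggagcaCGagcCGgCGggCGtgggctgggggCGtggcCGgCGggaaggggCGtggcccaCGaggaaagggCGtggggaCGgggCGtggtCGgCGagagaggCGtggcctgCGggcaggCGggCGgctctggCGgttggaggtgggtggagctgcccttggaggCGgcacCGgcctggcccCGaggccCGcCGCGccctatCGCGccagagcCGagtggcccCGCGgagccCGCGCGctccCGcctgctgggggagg
Rapgef5: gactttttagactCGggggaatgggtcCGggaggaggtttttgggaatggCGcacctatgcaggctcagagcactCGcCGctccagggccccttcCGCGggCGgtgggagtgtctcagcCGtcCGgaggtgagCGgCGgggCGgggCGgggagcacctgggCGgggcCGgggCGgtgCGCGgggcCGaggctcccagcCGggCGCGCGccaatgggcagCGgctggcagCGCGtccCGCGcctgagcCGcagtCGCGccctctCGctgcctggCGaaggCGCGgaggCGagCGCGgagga
Arhgap32: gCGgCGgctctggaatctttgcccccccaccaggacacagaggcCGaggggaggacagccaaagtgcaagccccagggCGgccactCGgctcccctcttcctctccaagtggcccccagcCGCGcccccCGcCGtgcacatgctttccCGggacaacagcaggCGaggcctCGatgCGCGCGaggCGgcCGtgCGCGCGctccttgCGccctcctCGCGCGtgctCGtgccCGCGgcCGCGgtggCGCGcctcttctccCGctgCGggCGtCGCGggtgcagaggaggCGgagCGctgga
Gm2885 (Ezr): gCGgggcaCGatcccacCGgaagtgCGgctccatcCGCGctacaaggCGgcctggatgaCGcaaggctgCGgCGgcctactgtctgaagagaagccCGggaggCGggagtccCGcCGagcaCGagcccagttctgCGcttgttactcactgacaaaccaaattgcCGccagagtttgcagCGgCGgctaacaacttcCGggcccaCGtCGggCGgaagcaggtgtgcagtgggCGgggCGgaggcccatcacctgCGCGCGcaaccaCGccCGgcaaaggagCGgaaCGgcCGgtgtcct
Gm33582 (Mir719): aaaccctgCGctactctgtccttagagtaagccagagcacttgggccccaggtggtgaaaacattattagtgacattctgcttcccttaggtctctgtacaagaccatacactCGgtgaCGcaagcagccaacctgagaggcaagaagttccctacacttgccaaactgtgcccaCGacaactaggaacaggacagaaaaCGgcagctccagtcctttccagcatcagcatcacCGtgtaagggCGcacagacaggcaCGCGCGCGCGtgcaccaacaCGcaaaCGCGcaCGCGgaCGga
Gm51701 (Ccr1): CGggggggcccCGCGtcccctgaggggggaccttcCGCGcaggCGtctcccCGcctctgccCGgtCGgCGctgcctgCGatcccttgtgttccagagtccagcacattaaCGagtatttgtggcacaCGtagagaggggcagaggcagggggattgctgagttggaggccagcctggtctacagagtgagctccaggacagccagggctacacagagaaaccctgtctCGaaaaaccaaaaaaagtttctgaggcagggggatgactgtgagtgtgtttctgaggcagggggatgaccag
The Pcgf5, Rapgef5 and Arhgap32 windows hold 35, 39 and 38 CG dinucleotides at a GC content of 78.7%, 75% and 74.3%. The Gm2885 window holds 33 at 67.7%, the Gm33582 window 18 at 55.3% and the Gm51701 window 14 at 61.3%. GGGCGG is present in the Pcgf5, Rapgef5, Arhgap32 and Gm2885 windows and is not among the letters of the Gm33582 and Gm51701 windows. None of those printed holds TATAAA.

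Most of the 900 regions lay between genes. By the table's annotation 663 (73.7%) were intergenic and 237 (26.3%) intronic, against 41.0% and 52.8% of other distal regions. The quartiles of the distance to the TSS were 7619, 18003 and 39836 bp, against 10324, 22999 and 51741 bp. At the edge of the rule, the nearest region inside lay 3006 bp from the TSS of Setd1b, a histone methyltransferase gene, with a mean signal of 145 tags, and the nearest region outside lay 2987 bp from Dlg4, which encodes a postsynaptic scaffold, with 11.4 tags. Regions were called as peaks in both treatments in 771 cases (85.7%), with IL-33 alone in 77 (8.56%) and with vehicle alone in 52 (5.78%), against 69.3%, 20.6% and 10.04% of other distal regions. The set formed 779 separate stretches when regions up to 1000 bp apart were joined, of which 684 held 1 region, 73 held 2 and 22 held 3 to 5. As 209 regions overlap another region of the table and share reads with it, neighbouring values are not independent. The nearest genes numbered 711, with 769 regions nearest to a protein-coding gene and 119 to a noncoding one.

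The signal of the set was spread more widely than that of other distal regions, with more regions at both ends. The median of the mean signal was 7.81 tags (quartiles 1.58 and 52.3) against 7.16 (2.10 and 29.2). In all, 133 regions (14.8%) reached 100 tags, against 7.28% of other distal regions, while 263 (29.2%) lay below 2 tags, against 24.1%. The ratio of the set's median to that of other distal regions was 1.14 ± 0.30 (SD, n = 8 libraries). This spread includes the offset between the sexes, which differ in batch, so it cannot tell whether the ratio departs from 1. The ratio was above 1 in every male mouse (1.28, 1.17, 1.33 and 1.67), and 1, 1, 0.67 and 1 in the female mice. The female ratios of 1 are ties between equal medians. With the set's median at 1 to 3 reads per female library, they are too coarse to show a small departure. The ratio of means was 1.87, 1.72, 1.89 and 1.90 in the male and 1.37, 1.40, 1.17 and 1.32 in the female libraries. Both ratios were thus lower in every female library than in any male library, and the female libraries had the smaller totals.

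**Figure D1:**
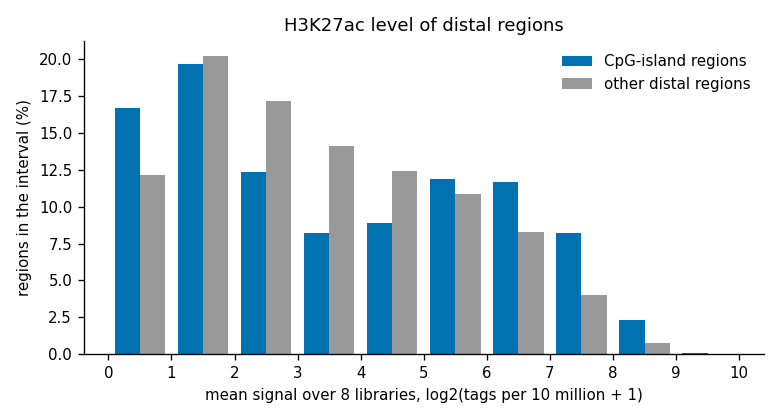
Share of regions (y axis, percent) in each interval of mean H3K27ac signal over 8 libraries (x axis, log2 of tags per 10000000 plus 1) for 900 CpG-island regions and 70559 other distal regions. CpG-island regions make up the larger share in the lowest interval (16.7% against 12.2%) and in every interval above 5, such as 8.22% against 4.04% between 7 and 8.

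The 8 regions with the highest mean signal were led by 1 nearest to Sirt4, which encodes a mitochondrial sirtuin. It held 614, 423, 599 and 517 tags in the male mice and 472, 893, 443 and 719 in the female mice. Male and female values overlapped there. The next were nearest to Anp32e, a histone chaperone of H2A.Z (mean 393), Kdm6b, the demethylase that removes methylation from H3K27 (374), Tex44 (338), Foxj2, a forkhead factor (338), 1700110C19Rik (324), Arid1a, a subunit of the BAF chromatin remodelling complex (323), and Fbrs (313). The authors' deposited table gives adjusted p-values of 0.398 to 0.973 for IL-33 at 7 of these 8. At the last, nearest to 1700110C19Rik, it gives a log2 fold change of -0.71 (adjusted p = 9.52e-05), so signal there fell with IL-33.

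IL-33 was compared with vehicle in the authors' deposited table, which lists 638 of the 900 regions (70.9%, against 76.0% of other distal regions) and an adjusted p for 496 of them. Called at an adjusted p below 0.05, the authors' deposited table has 27 of the 496 higher with IL-33 (5.44%, against a background of 10.2% over all 40352 regions with an adjusted p) and 30 lower (6.05%, background 7.99%). The share called was therefore below the background in both directions. By the authors' deposited table the median log2 fold change was 0.03 over the 496 and -0.01 over all, and the median absolute value 0.34 against 0.51. The same table gives a higher median level for the 496 (23.7 against 12.2) and a lower median standard error (0.41 against 0.46). In bands of equal signal, its calls reached 6.36% of CpG-island regions against 13.6% of other distal regions at 10 to 30 tags, 12.3% against 27.1% at 30 to 100 tags, and 19.5% against 32.8% from 100 tags up. The set's share was lower in each of the 3 bands, a difference given as a description with no test.

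The called regions had smaller median changes than called regions at large. In the authors' deposited table the 27 higher regions had a median log2 fold change of 1.22 (0.57 to 2.33) against 1.51 over all 4115 higher calls, and the 30 lower ones had -0.98 (-2.57 to -0.59) against -1.23 over all 3226 lower calls. Of these, 19 higher and 14 lower regions changed by at least 1 on the log2 scale. The 57 regions lay in 50 stretches, 7 of which held several calls, and no stretch held calls of both directions. Regions of the table centred more than 500 and up to 1500 bp away moved the same way where they were called. Counting each neighbour once, the authors' deposited table has 14 of 32 higher and 0 lower around 20 higher regions, and 14 of 33 lower and 0 higher around 20 lower ones. Without neighbours that are themselves CpG-island regions of the set, these are 10 of 26 higher and 10 of 21 lower in the authors' deposited table. Of these calls, 5 of the 27 and 5 of the 30 overlapped a RefSeq start window. That is near the share of the set, as the authors' deposited table calls 12.2% of the 82 regions at such a window, against 11.5% of the 496.

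**Figure D2:**
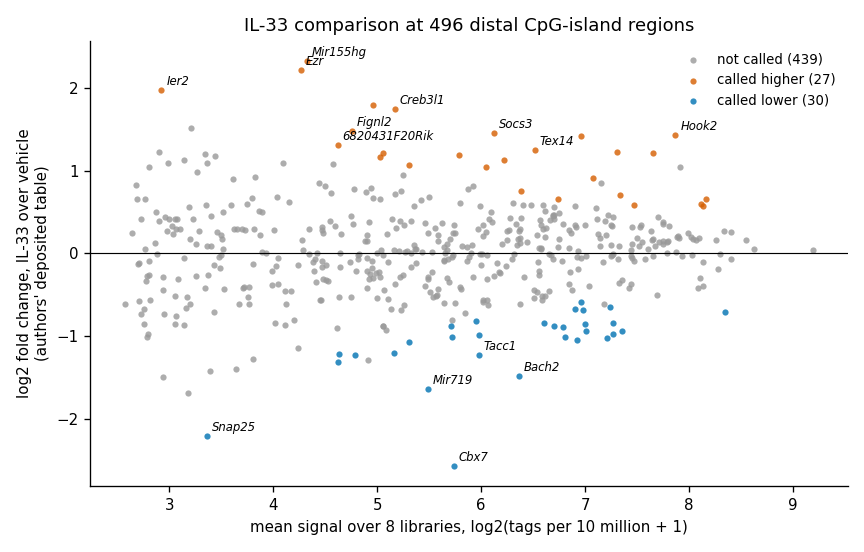
Log2 fold change of IL-33 over vehicle from the authors' deposited table (y axis) against mean signal over 8 libraries (x axis, log2 of tags per 10000000 plus 1), 1 point per CpG-island region with an adjusted p, coloured by call at an adjusted p under 0.05. The 27 higher and 30 lower regions are spread over the range of signal, with Mir155hg at 2.33 and Cbx7 at -2.57 at the extremes.

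Among the regions higher with IL-33, the largest change was at a region nearest to Mir155hg (chr16:84703072-84703572, 9701 bp away), the host transcript of the microRNA miR-155, which promotes inflammatory responses in macrophages. It held 53.9, 34.4, 8.39 and 3.88 tags in the male mice and 46.9, 4.84, 0 and 0 in the female mice. Mice 1, 2 and 3 were highest, and mice 7 and 8 had no read. The authors' deposited table puts the change at 2.33 ± 0.58 on the log2 scale (SE, adjusted p = 0.000953). Both regions at the Gm2885 window printed above, 45011 and 45530 bp from Ezr, which encodes ezrin, a linker of membrane and actin, were higher as well, and the authors' deposited table gives 1.79 ± 0.44 and 2.21 ± 0.52 (adjusted p = 0.000874 and 0.00043). The former held 44.9, 22.9, 11.5 and 3.88 tags in the male mice in the same order and 64.5, 60.5, 13.9 and 18.6 in the female mice.

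Socs3, the feedback inhibitor of cytokine receptor signalling through JAK and STAT, had 4 CpG-island regions, of which a pair moved. They overlap each other at 19517 and 19873 bp from its TSS, and the authors' deposited table gives 1.43 ± 0.25 (adjusted p = 6.47e-07) and 1.46 ± 0.34 (adjusted p = 0.000276). The first of them held 186, 155, 45.1 and 65.9 tags in the male mice and 199.5, 172, 50.2 and 116 in the female mice. The region 5804 bp from the same TSS held 43.5 to 65.0 tags in all 8 mice, and the authors' deposited table gives it -0.07 (adjusted p = 0.925). The fourth held 1.90 tags and has no adjusted p. Of the islands of this gene, then, the pair alone passed the threshold.

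The region with the lowest adjusted p lay 4548 bp from Hook2, which encodes a microtubule linker protein. It held 385, 258, 108 and 118 tags in the male and 249, 472, 134 and 135 in the female mice, and the authors' deposited table gives 1.44 ± 0.19 (adjusted p = 1.35e-11). Creb3l1, a membrane-bound transcription factor of the endoplasmic reticulum stress family, had 4 CpG-island regions, of which 1 was higher in the authors' deposited table (1.75, adjusted p = 0.000297) while another did not pass (-0.32, adjusted p = 0.707). The other two had no adjusted p. A region near the immediate early gene Ier2 is higher by 1.97 in the authors' deposited table (adjusted p = 0.0203), but its mean was 6.59 tags and mice 6 and 7 had no read there. The authors' deposited table also has regions near Fignl2 (1.48), 6820431F20Rik (1.31), Tex14 (1.26) and Mnt, a MAX-binding repressor of MYC targets (1.23), as higher.

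Among regions lower with IL-33, the first was in an intron of Cbx7 (chr15:79927571-79928071, 4825 bp from its TSS), a chromodomain subunit of Polycomb complex PRC1. It held 7.98, 17.2, 70.2 and 73.6 tags in the male mice and 8.80, 14.5, 86.4 and 139 in the female mice. The values ranged widely in both sexes, and the sexes overlapped. The authors' deposited table puts the change at -2.57 ± 0.37 on the log2 scale (adjusted p = 3.73e-10). Near Snap25, a gene for a synaptic vesicle fusion protein, the authors' deposited table gives -2.21 ± 0.64 (adjusted p = 0.00529), on a mean of 9.26 tags.

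The region at the Gm33582 window printed above, 51691 bp from Mir719, held 17.0, 26.3, 68.2 and 75.6 tags in the male and 11.7, 21.8, 61.3 and 69.6 in the female mice. It fell by 1.64 in the authors' deposited table (adjusted p = 0.00013). A pair of regions 178001 and 177461 bp from Bach2, a repressor that restrains lymphocyte and macrophage differentiation, fell by 1.48 and 1.31 in the authors' deposited table (adjusted p = 0.00028 and 0.0234). Overlapping regions near Tacc1, a spindle-associated coiled-coil gene, fell by 1.23 and 1.02 in the authors' deposited table (adjusted p = 0.000865 and 6.81e-05). The rest of the 12 lowest in the authors' deposited table were near Scd3, a fatty acid desaturase gene (-1.23), Bahcc1 (-1.22), Ip6k2, an inositol phosphate kinase gene (-1.21), Gm3264 (-1.08) and Slc16a7, a monocarboxylate transporter gene (-1.05).

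The peak set in which a region was found did not fix its direction. Of 28 regions from the IL-33 peak set alone that have an adjusted p, the authors' deposited table has 3 higher (10.7%) and 6 lower (21.4%) with IL-33. The shares were 5.44% and 6.05% of the 496, and 10.2% and 7.99% of all regions with an adjusted p. These are few regions and not all are separate loci, so no share is read from them. The lower ones include both called regions of Bahcc1, a gene for a BAH-domain chromatin protein that had 4 CpG-island regions between 3670 and 5110 bp from its TSS. The authors' deposited table gives these 4 regions log2 fold changes of -1.22 to -0.72, 2 of them past the threshold. The call of the lowest is lost when the p-values in the authors' deposited table are adjusted over every region that has one (adjusted p = 0.0657). For the 15 from the vehicle peak set alone, the authors' deposited table has 0 higher and 1 lower (6.67%).

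Gene lists held few of these regions. Among AP-1 and immediate early genes, 9 of 31 had CpG-island regions (14 regions, 11 with an adjusted p), with 1 called higher, at Ier2, and 1 lower in the authors' deposited table, or 18.2% called, against 11.5% of the 496 regions and 18.2% of all regions with an adjusted p. The lower one lay 18421 bp from Fos, a subunit of AP-1, and held 32.9, 77.9, 130.0 and 134 tags in the male and 44.0, 123, 94.8 and 135 in the female mice, with a log2 fold change of -0.84 (adjusted p = 0.035) in the authors' deposited table. Regions near Jun (203 tags), Batf3 (121) and Nr4a1 (114) have 0.09, 0.03 and -0.37 in the authors' deposited table, with adjusted p-values of 0.926, 0.959 and 0.286. Among NF-kB and cytokine response genes 2 of 43 had such regions, namely Socs3, with the pair above, and Cd83, an activation marker (22.0 tags, and by the authors' deposited table an adjusted p of 0.678). The overlapping pair makes 2 of 4 regions called there, too few to read a share from.

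Among chromatin and Polycomb regulators 10 of 48 had CpG-island regions (18 regions, 8 with an adjusted p), of which the authors' deposited table has 0 higher and 2 lower (25% called), at Cbx7 and at Cxxc5. The shares called were 11.5% of the 496 regions and 18.2% of all regions with an adjusted p. With 2 of 8 regions called, the list is too small to read a share from. Cxxc5 encodes a CXXC-domain protein that binds unmethylated CpG. It had 4 regions at 95.3 to 270.3 tags, with log2 fold changes of -0.69 to -0.39 in the authors' deposited table, 1 of them past the threshold (-0.69, adjusted p = 0.0324). Cbx8, another Polycomb chromodomain gene, had 4 regions that held only 0.24 to 1.33 tags. Developmental transcription factor genes, whose islands are typical Polycomb targets, accounted for 16 regions at 15 of 138 genes. Their median signal was 1.34 tags and 11 of 16 lay below 2 tags, with Meis1, Barhl2 and Gata2 at 3.03, 3.30 and 3.45. A region in an intron 34403 bp from Dlx2, a homeobox gene of forebrain interneurons, was the exception. It held 293, 202, 273 and 244 tags in the male mice and 226, 317, 251 and 274 in the female mice, and the authors' deposited table gives -0.02 (adjusted p = 0.968). Among 30 microglial identity genes only Sall1, a transcription factor that maintains microglial identity, had such a region, at 279.7 tags and -0.10 (adjusted p = 0.75) in the authors' deposited table. None of 50 imprinted genes had one. The genes with the most regions were Adgrl2 and Psd2 with 5 each, followed by Abr, Bahcc1, Cbx8 and Creb3l1 with 4. Of the 5 Psd2 regions 1 was lower in the authors' deposited table (-1.01, adjusted p = 0.000613) and the 5 of Adgrl2 had no call.

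The comparison of female with male libraries asked which regions differ by sex, within the limit that sex cannot be told apart from date, index type and depth. Treatment was not in the fit either, because the labels do not say which mouse received IL-33. Its balance between the sexes is therefore unknown. In a limma fit to log2(signal + 1) over all 53348 regions with a mean of at least 10 tags, 422 of the 900 CpG-island regions were tested and 478 were not. With Benjamini-Hochberg adjusted p under 0.05, 27 of the 422 (6.40%) were lower in female libraries, against a background of 1.81%, and 0 were higher, against a background of 0.157%. At an unadjusted p under 0.05, limma had 18 of the 422 higher and 69 lower. The shares over all regions are not given for comparison, so these counts are not read as a trait of the set. With adjusted p under 0.05, edgeR and DESeq2 also called 0 higher. Among other distal regions 13 of 30761 were lower (0.0423%), so CpG-island regions made up 27 of the 40 lower calls far from a TSS. Within 1000 bp of a TSS 885 of 15811 were lower (5.60%), and among regions annotated as CpG island within 3000 bp of a TSS 173 of 1609 (10.8%). The set thus stood near the promoters in its share of lower calls, a description with no test. By level, lower calls made up 3 of 110 CpG-island regions at 10 to 30 tags against 2 of 13454 other distal ones, 16 of 179 against 8 of 12171 at 30 to 100 tags, and 8 of 133 against 3 of 5136 from 100 tags up.

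Across the 422 tested regions the median difference, female minus male, was -0.01 on the log2(signal + 1) scale, against 0.22 over all tested regions and 0.31 over other distal regions. The calls stand at the low end of this distribution. All 4 male values lay above all 4 female values in 55 of the 422 regions, and the reverse held in 10. The same counts over all tested regions are not given here, so these are not read as a trait of the set. The 55 include all 27 called, which such a call largely implies. The scaling matters for the median of all regions, which trimmed mean of M-values (TMM) rescaling moved by -0.31, quantile normalisation by -0.14 and testing without a filter by -0.32. The median of the CpG-island regions stayed 0.20 to 0.27 below that of all regions in these and all other settings tried. TMM and quantile scaling raised the lower calls to 47 and 46, still with 0 higher. Shares over all regions with these scalings are not given here, so the rise cannot be called particular to the set. The count depended on single libraries, being 14, 14, 13 and 11 without male mouse 1, 2, 5 or 6, and 37, 28, 18 and 26 without female mouse 3, 4, 7 or 8. It was 42 with DESeq2. Among regions more than 3000 bp from every RefSeq start it was 17 of 290 tested, a share of 5.86% that is close to the 6.40% of the 422. Of the 27 calls themselves, 14, 14, 13 and 11 were kept without male mouse 1, 2, 5 or 6. Without female mouse 3, 4, 7 or 8, 25, 23, 17 and 22 were kept. The difference of the 27 was negative in every setting in which they were tested, which their selection in the same libraries largely implies.

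**Figure D3:**
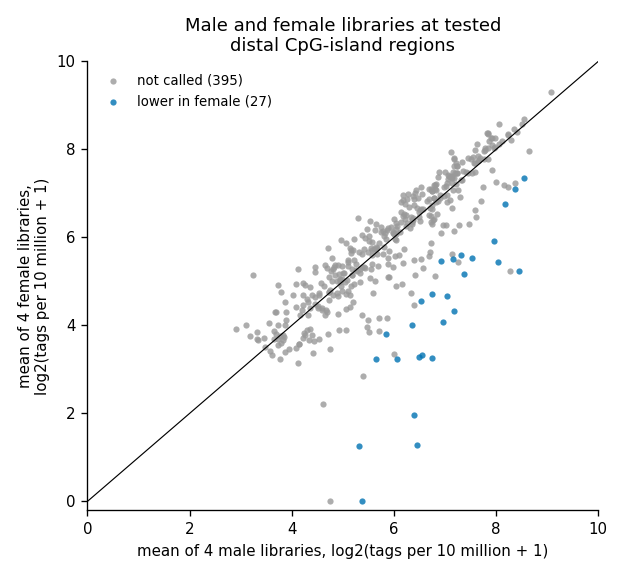
Mean signal of 4 female libraries (y axis) against that of 4 male libraries (x axis), both as log2 of tags per 10000000 plus 1, for the 422 CpG-island regions tested, with the line of equal signal. Most points follow the line, and the 27 regions called lower in female libraries lie below it, 1 of them, at Pcgf5, at 0 on the y axis.

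The 27 regions lower in female libraries ranged from -5.38 to -1.29 on the log2(signal + 1) scale, with a median of -2.61. They lay near 24 genes, 21 of them between genes and 6 in introns, and 24 were in both peak sets. Mean signal in male libraries was 39.0 to 371 tags. At the strongest, near the chromatin remodeller gene Chd7, the male mean was 371 and the female mean 163. The authors' deposited table, made from the same libraries, has 0 IL-33 calls among the 27, where 11.5% of the 496 regions are called (log2 fold changes of -0.62 to 0.61, adjusted p of 0.556 to 0.99). Its standard errors are larger at these 27, with a median of 0.64 against 0.41.

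The region with the lowest value was nearest to Pop7, which encodes a subunit of RNase P and MRP (7991 bp away). It held 77.8, 43.5, 118 and 107 tags in the male mice and 2.93, 0, 2.79 and 0 in the female mice. That is 284 reads in the male and 2 in the female libraries, a difference of -5.38 ± 0.71 (SE, limma adjusted p = 0.00139). The region at the Pcgf5 window printed above, in an intron of the gene, held 43.9, 28.6, 38.8 and 50.4 tags in the male mice and none in the female mice. Pcgf5 encodes a subunit of a Polycomb PRC1 complex. With 132 male reads and 0 female reads, its signal was at least 17.9-fold lower in female libraries, taking the floor of 3 reads over the 4 female libraries together, or 2.26 tags, which covers counting error only (limma adjusted p = 0.0136). Near Mark4, a microtubule-associated kinase gene, the male mice held 36.9, 44.7, 137 and 112 tags and the female mice 11.7, 0, 0 and 0 (-5.26 ± 0.91, limma adjusted p = 0.00737).

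The other two printed windows behaved alike. The Rapgef5 region, in an intron of a gene for an exchange factor of Rap GTPases, held 141, 88.2, 81.8 and 114 tags in the male mice and 20.5, 0, 0 and 13.9 in the female mice (-4.63 ± 0.95, limma adjusted p = 0.0267). The Arhgap32 region, near a gene for a GTPase-activating protein, held 24.9, 26.3, 54.5 and 50.4 tags in the male and 0, 0, 5.57 and 0 in the female mice (-4.56 ± 0.98, limma adjusted p = 0.0281). No male and female values overlapped at either. The last 3 of the 8 lowest calls were near Lncppara (-3.64), 4931406P16Rik (-3.60) and Zfhx3, a homeobox transcription factor gene (-3.54). The Zfhx3 region had the highest signal of these 8 calls, with 371, 328, 332 and 372 tags in the male and 85.1, 26.6, 16.7 and 18.6 in the female mice (limma adjusted p = 0.00091). A region near Mir5128, named after its values were seen, had a difference of -4.73, with 85 male and 0 female reads, but did not pass the threshold (limma adjusted p = 0.0769).

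Several of these 8 calls were lost in a few settings, with differences of similar size. Leaving out any 1 male mouse raised the adjusted p of the Pcgf5, Rapgef5 and Arhgap32 regions to between 0.0727 and 0.263, as did a pseudocount of 0.5 (0.0606, 0.0571 and 0.0719), with differences between -6.33 and -4.37. The Rapgef5 call was also lost without female mouse 7 (-3.94, adjusted p = 0.0743). The Mark4 call was lost without male mouse 5 or 6 (0.0938 and 0.0822). With regions of at least 30 tags alone, Mark4 and Pop7 reached adjusted p-values of 0.161 and 0.0913.

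**Figure D4:**
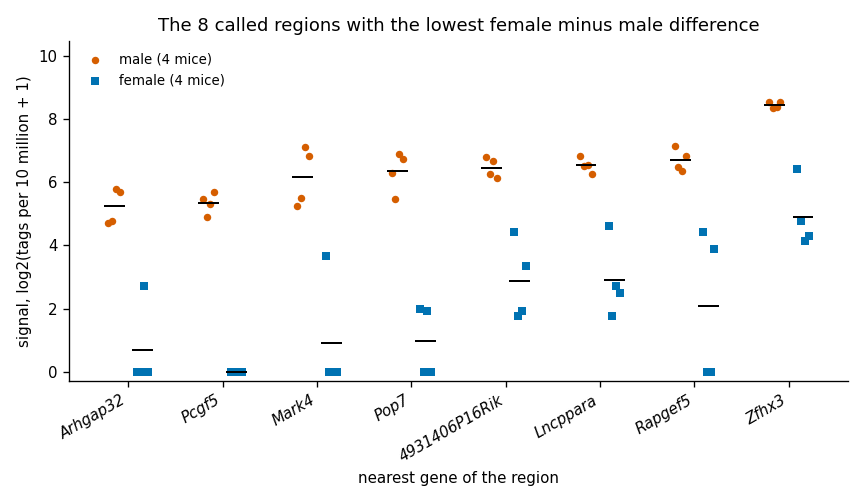
Signal (y axis, log2 of tags per 10000000 plus 1) of the 8 called CpG-island regions with the lowest female minus male difference, by nearest gene (x axis), 1 point per mouse, with circles for 4 male and squares for 4 female mice and black lines for group means of the log2 values. Male and female values do not overlap in any of the 8, and the Pcgf5 region has no read in any female library.

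In most cases tested regions next to these differed less between the sexes than the called regions did. As the called regions were picked for low values, milder neighbours are in part implied. For 23 of the 27 there were 32 different tested regions centred more than 500 and up to 1500 bp away, and 1 of these was called lower. The background over all tested regions was 1.81%, and 1 of 32 is too few to set against it. Closer regions, which can share reads, were left out. Of the 32, 19 were not CpG-island regions of the set. The median difference was -2.37 for the 23 regions and -0.01 for the means of their neighbours. At Mark4 the neighbour had means of 42.6 tags in male and 45.1 in female libraries, and at the first Rapgef5 region 89.8 and 114, while the regions themselves had 82.8 and 2.93, and 106 and 8.62. Neighbours of 3 regions were at or below -1, at Zfhx3 (-3.03), Lncppara (-2.88) and Nr3c1 (-1.02), the gene of the glucocorticoid receptor. For the other 20 the mean of the neighbours was above -1, from -0.89 at Abr to 0.94 at Gm17359.

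**Figure D5:**
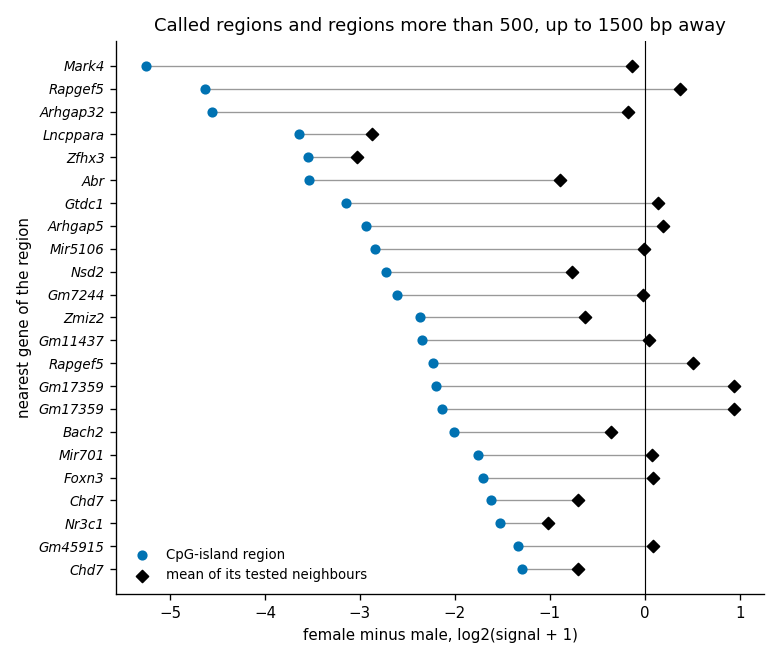
Difference of female minus male libraries (x axis, log2 of signal plus 1) for 23 CpG-island regions called lower in female libraries (circles) and the mean of tested regions centred more than 500 and up to 1500 bp away (diamonds), by nearest gene (y axis). Most neighbour means lie above -1, with a median of -0.01, and those at Zfhx3 and Lncppara lie below -2.

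Base composition moved with this difference. Of the 27 regions, 8 overlapped a RefSeq start window (11.1% of the 72 tested there). A further 17 lay more than 3000 bp from every RefSeq start (5.86% of the 290 tested there). Across the 72 tested CpG-island regions at a window, Spearman's rank correlation between the window's GC content and the female minus male difference was -0.51, and that for its number of CG dinucleotides -0.42. Over all 9240 tested autosomal regions at a window, promoters included, the correlations were -0.43 and -0.44. Over 397 other distal regions at a window they were weaker, at -0.15 and -0.13. These points share libraries, depth and in part reads, and the values are descriptions. All 9240 regions, promoters included and not the set alone, were also split into 4 bins by the window's number of CG dinucleotides. The bins were 0 to 14, 15 to 22, 23 to 30 and 31 to 65. From the lowest to the highest bin, 0.484%, 1.70%, 4.05% and 18.4% of these regions were called lower in female libraries. The Pcgf5, Rapgef5 and Arhgap32 windows, with 35 to 39, belong to the highest bin. Whether composition, index type, date, depth or sex accounts for the lower signal cannot be told apart in this design.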

How the data were processed

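Per the submitters' processing notes, the authors used Bowtie2 and HOMER with mm10 (GRCm38), in versions not given in the sources used here. Per the file headers, the authors' region table holds a signal, HOMER tags scaled to 10000000 per library, for 500 bp regions in 8 H3K27ac libraries. The authors' deposited table of IL-33 against vehicle, named as anchored on ATAC-seq, holds a log2 fold change and log2 group values, a mean level, standard error and statistic (scores) and a p-value with its adjusted p-value, made with a tool that is not given. Labels name no treatment per mouse, so that comparison was read and not refitted. The submitters' labels make each library a separate mouse.

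Reads recovered through the header factors were whole within 0.01 read for 100% of values. Sex was tested with limma 3.58.1 (trend, robust; R 4.3.3) on log2(signal + 1) for regions with a mean of at least 10 tags, adjusted over all of them, after a test on simulated data. edgeR 4.0.16 and DESeq2 1.42.0 on the recovered reads, TMM and quantile scaling, other pseudocounts (0.5, 5), filters and left-out libraries were alternatives. Regions were named as the 12 highest and 12 lowest IL-33 calls, the 8 lowest sex calls, the 8 highest levels, the 6 genes with most regions and up to 4 of each gene list. The regions and lists were chosen with earlier results of these data known. No genome was used, so sequences come from RefSeq promoter windows (GRCm38.p6) in place of the regions' own bases, and regions were not ranked by composition. Nearest genes matched RefSeq for 99.7% of names.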

Additional observations from a re-analysis of the deposited data

Results flagged for a closer look

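Among 54 named regions, each sex was examined for a mouse that stood apart, and 7 of 108 groups of 4 mice held one by the gap to its nearest value divided by the whole range. Chance alone gives about 1 in 20 groups. At Arhgap32 the ratio was 1, with female mouse 7 at 5.57 tags and the other female mice at 0. At Mark4 it was 1, with female mouse 3 at 11.7 tags and the others at 0. At Lncppara female mouse 3 held 23.5 tags against 2.42 to 5.57 in the others (0.85), and at Zfhx3 it held 85.1 against 16.7 to 26.6 (0.855). At Mir155hg female mouse 3 held 46.9 tags against 0 to 4.84 (0.897). At Meis1 and at Barhl2 the ratio was 1, with female mouse 4 at 24.2 and 7.26 tags and the others at 0. Female mouse 3 or 4 was the one apart in 6 of the 7, and a single read is worth 2.93 tags in mouse 3 and 2.42 in mouse 4.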

How the results depend on the processing

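With the authors' calls at an adjusted p under 0.01, regions higher and lower with IL-33 numbered 17 and 15, against 27 and 30. A change of at least 1 on the log2 scale left 14 lower, and a distance over 10000 bp left 16 higher. These IL-33 counts have no share over all regions beside them. The distance rule also leaves fewer regions that could be called, so its count is not read as an effect of distance. Counts of regions lower in female libraries, with no share over all regions beside them, were 47 with TMM, 46 with quantile scaling and 42 with DESeq2. They were 17 of 290 tested away from every RefSeq start (chosen after seeing the data), and 11 to 37 with a library left out. No region of the set was higher in female libraries in any setting, except 1 without female mouse 3 (0 to 1 with a library left out). The median female minus male difference of -0.01 was -0.32 with TMM, -0.19 with quantile scaling, -0.33 without a filter and -0.10 to 0.03 with a library left out. The ratio of medians to other distal regions, 1.14, was 1.58 as a ratio of means. That median lies near 0 and changed sign in 5 settings, being 0.01 with a pseudocount of 5, 0.06 from 30 tags up and 0.07 with edgeR, besides 2 left-out libraries. No called difference of a named region changed sign, which a call in the same libraries largely implies. In at least 1 setting 27 named regions that were not called did so. Among named regions, 20 combinations of region and setting lost a sex call, 4 gained one (Arid1a and Jun with TMM and quantile scaling), and 11 lost an IL-33 call, all but 1 of them at the stricter threshold. Centring by GC content was not run because no genome was used. No paired analysis was possible because male and female mice carry different numbers, and the inputs that share numbers with male libraries have no values here. Depth limits the female libraries, where the median region held 1 to 3 reads.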
